A study of Mus musculus with 4 samples.

Results

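Bone resorption by osteoclasts was examined through 7 genes, taken by name from the 34745 genes of the deposited expression table: Ctsk, Acp5, Tcirg1, Clcn7, Ostm1, Car2 and Calcr. RNA was sequenced from bone marrow derived macrophages (BMMs), the cells from which osteoclasts are grown in culture. Male C57BL/6 mice of wt genotype, 8 weeks old, gave the BMMs, which were kept for 12 h without serum, and then received RANKL at 100 ng/mL in complete medium for 24 h, together with dimethyl itaconate (DI) or with its vehicle, DMSO. Both groups thus received RANKL, and no library without RANKL was analysed here. DI is an ester derivative of itaconate, a metabolite of activated macrophages, and it stands in for the metabolite in this model. The study cautions that DI may not act exactly as endogenous itaconate does. It cites work in which DI was not turned into itaconate inside cells. The labels give its dose as 20 mM, whereas the methods of the study give the same figure in micromolar units. Each group, called RANKL+DI and RANKL+Veh here, held 2 libraries. Nothing in the labels says whether the libraries of a group came from separate mice or cultures, so the p-values measure the spread between these libraries, which may be technical.

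An osteoclast resorbs bone in a sealed space under the cell. Car2, a cytosolic carbonic anhydrase, supplies protons, the V-ATPase with the a3 subunit encoded by Tcirg1 pumps them across the ruffled border, and the chloride-proton exchanger Clcn7 with its partner Ostm1 moves the accompanying chloride. The acid dissolves mineral, the protease cathepsin K (Ctsk) cuts the exposed collagen, tartrate-resistant acid phosphatase (Acp5, TRAP) is the classical enzyme stain of osteoclasts, and the calcitonin receptor (Calcr) carries the hormonal stop signal. Tcirg1, Clcn7 and Ostm1 also serve the lysosomes of other cells, macrophages included, while Ctsk, Acp5 and Calcr are used as markers of the differentiating or mature osteoclast.

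The genes lie on 6 chromosomes of build GRCm38. Ctsk is on the forward strand at chr3:95499256-95509362 and Car2 on the same strand at chr3:14886273-14900770. Acp5 is on the reverse strand at chr9:22126731-22135746, Tcirg1 on the reverse strand at chr19:3896050-3907133 and Calcr on the reverse strand at chr6:3685680-3764714. Clcn7 is on the forward strand at chr17:25133391-25162104 and Ostm1 on the forward strand at chr10:42583822-42702459. Of their exon bases, 6.75% of those of Acp5 are shared with the opposite-strand transcript 6530413G14Rik and 5.69% of those of Ostm1 with the antisense gene Gm15200, which had 0 counts in every library. Counting is not stated to use strand. No member had a near-identical copy among the GENCODE M21 transcripts at 95% identity over at least 20% of its longest transcript. Calcr hosts the miRNA genes Mir653 and Mir489, which share none of its exon bases.

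Promoters are shown for Ctsk and Acp5, the members that fell with DI, and for Clcn7, a member that did not pass the test. The 250 bases before each start were taken from RefSeq (GRCm38.p6) and are written 5′ to 3′ on the gene's strand. Capitals mark matches, on either strand, to 4 motifs searched for in each promoter: the M-box core TCATGTG, read by factors of the Mitf family, the E-box CACGTG, the AP-1 site TGANTCA and the NFAT core GGAAA.
Ctsk, chr3:95498960-95499209, forward strand: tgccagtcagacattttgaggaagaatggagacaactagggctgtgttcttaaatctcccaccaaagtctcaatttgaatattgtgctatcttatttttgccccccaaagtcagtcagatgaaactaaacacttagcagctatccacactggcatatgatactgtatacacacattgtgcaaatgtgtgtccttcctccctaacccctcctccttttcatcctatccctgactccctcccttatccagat
Acp5, chr9:22130599-22130848, reverse strand, the last of its 3 listed starts: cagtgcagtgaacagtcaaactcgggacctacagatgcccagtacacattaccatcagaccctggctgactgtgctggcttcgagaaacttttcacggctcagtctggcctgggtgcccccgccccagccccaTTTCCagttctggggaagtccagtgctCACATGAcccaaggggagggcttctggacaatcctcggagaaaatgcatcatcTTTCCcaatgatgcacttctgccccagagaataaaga
Clcn7, chr17:25133141-25133390, forward strand, the first of its 2 listed starts: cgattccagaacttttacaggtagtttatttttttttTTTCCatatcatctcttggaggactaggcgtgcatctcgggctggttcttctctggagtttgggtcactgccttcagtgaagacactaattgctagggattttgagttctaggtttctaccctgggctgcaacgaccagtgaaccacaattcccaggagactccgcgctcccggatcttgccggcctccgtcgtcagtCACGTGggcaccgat
The Acp5 stretch holds the M-box at position -90 from the start, in reverse orientation, and the NFAT core at -117 and -37. In the Clcn7 stretch, the E-box stands at -15, with another at 8 behind the start, and the NFAT core at -213. The M-box was not particular to this start of Acp5, since the second listed start of Clcn7 held one at -42, and the first and second starts of Acp5 held none. The Ctsk stretch holds none of the 4 motifs, with an NFAT core at the start itself. Among the 32851 RefSeq promoters of 300 bases (250 before to 50 after the start), 3.77% held the M-box core, 7.15% the E-box, 7.81% the AP-1 site and 61.3% the NFAT core, which is short enough to be common. The table holds promoters of 6 members and none of Car2. No promoter of a member held the AP-1 site, and the promoter of Ostm1 held none of the 4 motifs. These matches describe letters and were not tested as binding sites.

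The 4 libraries held between 16085692 and 19403480 counts, and 12590 genes passed a filter on low counts. Values are given as counts and as CPM on the TMM scale (each library's counts relative to its scaled total), which corrects for differences in RNA composition. A gene was called changed at a Benjamini-Hochberg adjusted p under 0.05 over all tested genes in edgeR's quasi-likelihood test. By this rule 899 genes were higher and 969 lower with DI, and scaling by library size alone gave 548 higher and 1932 lower, with the median log2 fold change of all genes at -0.10 in place of 0.00. All 8 macrophage markers listed had counts in every library, and 5 were higher (Adgre1, Itgam, Cd68, Lyz2 and Mertk) and 2 lower (Cd14, at -0.51, and Fcgr1, at -0.60) with DI. Their summed level was 28424 and 29238 CPM with DI and 23108 and 22245 CPM with vehicle, most of it from Lyz2, and the other 7 summed to 5667 and 5468 CPM against 4833 and 4627 CPM. The part of these differences in the results below was not tested.

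Ctsk and Acp5 fell with DI (see the plot of member levels), Tcirg1 rose slightly, Clcn7 and Ostm1 did not pass the test, Car2 was lower at few counts without passing it, and Calcr had no count. The call rule was met by 3 of the 6 members tested, against 14.8% of all tested genes. Of these, 2 were lower, against 7.70% of all genes, and 1 was higher, against 7.14%. In all 6 tested members the libraries of the groups did not overlap in CPM, which was also the case for 58.6% of all tested genes.

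**Figure D1:**
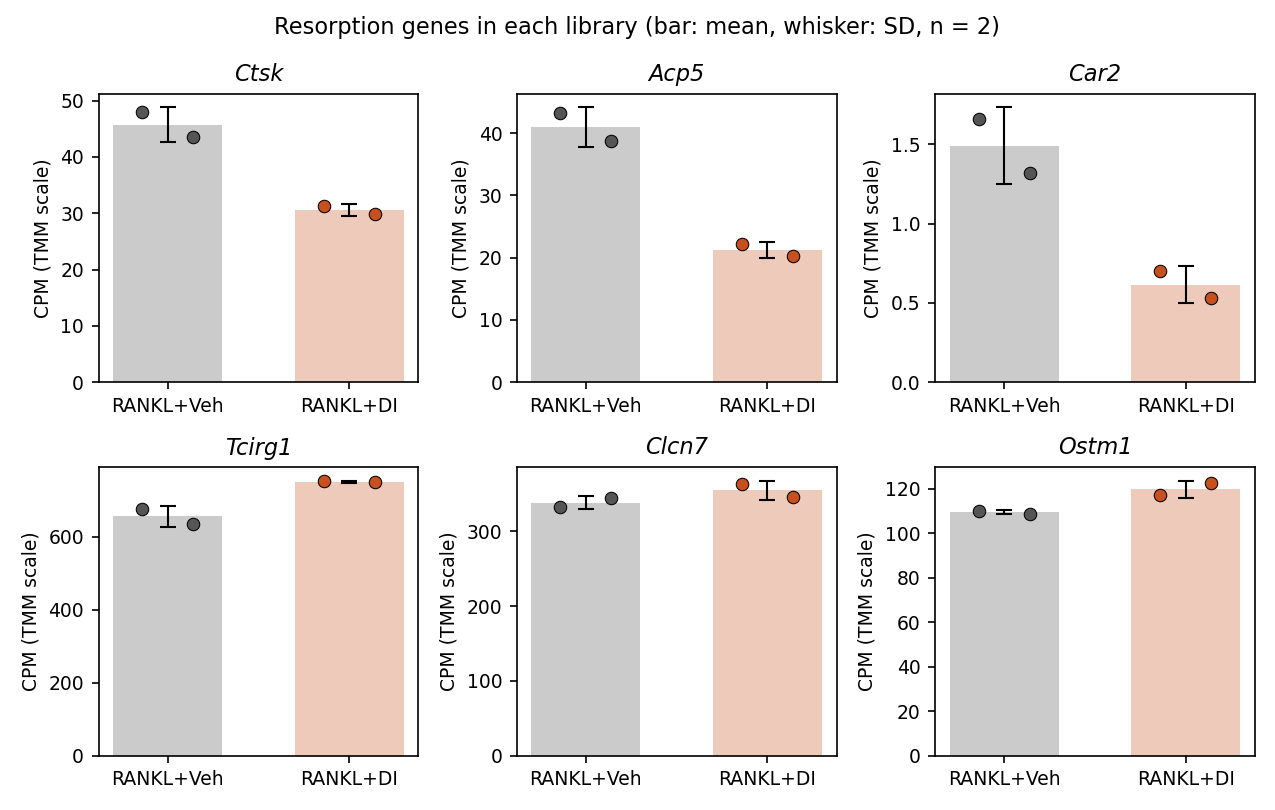
CPM on the TMM scale of the 6 members with counts, in the 2 RANKL+Veh (grey) and 2 RANKL+DI (orange) libraries; points are libraries, bars the mean and whiskers the SD, and each vertical axis starts at 0. Ctsk, Acp5 and Car2 were lower in both DI libraries, with Ctsk means of 45.7 and 30.6 CPM, whereas Tcirg1, Clcn7 and Ostm1 were higher in both DI libraries on this scale (Clcn7 was lower with DI with library size only).

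Cathepsin K, the collagen-cutting protease, was lower in both DI libraries. Ctsk had 893 and 726 counts in the vehicle libraries and 537 and 560 counts in the DI libraries, that is 47.9 and 43.6 CPM against 31.3 and 29.8 CPM. The lowest vehicle library stood well above the highest DI library. On average Ctsk was at 45.7 ± 3.08 CPM (SD, n = 2) with vehicle and at 30.6 ± 1.0 CPM with DI, so that the level with DI was 0.668 times the vehicle level. The log2 fold change was -0.58 with a standard error of 0.077 and a 95% interval from -0.77 to -0.39 (adjusted p = 0.00659, edgeR's quasi-likelihood test), and 5.28% of all tested genes had a lower log2 fold change. In bulk RNA, fewer cells of a type and less RNA per cell cannot be told apart. The call held under the 11 alternatives, with adjusted p between 8.49e-05 and 0.0325.

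Acp5, the gene of TRAP, fell as well. It had 806 and 646 counts with vehicle and 380 and 381 counts with DI, or 43.2 and 38.8 CPM against 22.1 and 20.3 CPM. Both DI libraries lay far below both vehicle libraries and close to each other. The means were 41.0 ± 3.17 CPM (SD, n = 2) with vehicle and 21.2 ± 1.29 CPM with DI, a level with DI of 0.517 times the vehicle level. The log2 fold change of Acp5 was -0.95 with a standard error of 0.089 and a 95% interval from -1.17 to -0.73 (adjusted p = 0.00248, edgeR), and 1.87% of all tested genes had a lower one. Its call also held under the 11 alternatives, the highest adjusted p being 0.0117.

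Car2, the carbonic anhydrase that supplies the protons, was a low gene throughout, above the filter's 0.558 CPM (before TMM scaling) in both vehicle libraries and in 1 DI library. There were 31 and 22 counts with vehicle and 12 and 10 counts with DI, which are 1.66 and 1.32 CPM against 0.699 and 0.533 CPM. The exact 95% Poisson intervals of the counts, which cover counting error only, ran from 21.1 to 44.0 and from 13.8 to 33.3 with vehicle, and from 6.20 to 21 and from 4.80 to 18.4 with DI. The second vehicle library's interval thus overlapped those of both DI libraries, while the values themselves did not overlap between groups. Car2 had a log2 fold change of -1.28 with a standard error of 0.35 and a 95% interval from -2.14 to -0.42, at an unadjusted p of 0.0108 and an adjusted p of 0.0641 in edgeR. Erythroid cells also express Car2. The 9 erythroid markers listed summed to 0.160 to 0.268 CPM per library, with the globin genes and Car1 at 0 counts in every one. Any part of such cells in the Car2 values was not tested. Car2 did not pass, and its adjusted p ranged from 0.0397 to 0.259 over the alternatives that gave one. With library size only, the value was -1.38 (adjusted p = 0.0426, edgeR), and with at least 10 counts in every library, -1.28 (adjusted p = 0.0397, edgeR), which are calls. Of the other carbonic anhydrases, 4 of 15 were tested and none passed in either direction, with 5 lacking any count. The most abundant, Car13, another cytosolic enzyme, had a mean of 25.5 FPKM (the authors' value corrected for gene length and depth) with vehicle and 20.2 FPKM with DI (log2 fold change -0.23, adjusted p = 0.0933, edgeR). Car5b, a mitochondrial form, had a log2 fold change of -0.01. Per length, Car13 exceeded Car2 in every library, by 44.5 and 57.8 times with vehicle and by 87.1 and 126 times with DI.

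Tcirg1, the proton pump subunit, was the most abundant member and the only one called higher with DI. It had 12623 and 10598 counts with vehicle and 12938 and 14069 counts with DI, or 677 and 636 CPM against 753 and 750 CPM. The DI libraries agreed closely and both lay above the vehicle libraries. Mean levels were 656 ± 29.2 CPM (SD, n = 2) and 752 ± 2.44 CPM, with a log2 fold change of 0.19, a standard error of 0.041 and a 95% interval from 0.093 to 0.30 (adjusted p = 0.0305, edgeR). This call did not hold everywhere. With library size only the log2 fold change was 0.091 (adjusted p = 0.178, edgeR), against a median of all genes of -0.10 on that scale. Without DI library 1, DI library 2 or vehicle library 2, the adjusted p of Tcirg1 was 0.0806, 0.0743 and 0.0761 in edgeR, and over the 11 alternatives it ranged from 0.00501 to 0.178.

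Most other subunits of the V-ATPase were higher with DI as well. Of 24 listed subunits and accessory proteins besides Tcirg1, 18 were tested, 12 were called higher and 0 lower, with a median log2 fold change of 0.24, where the median of all tested genes was 0.00. Atp6v0a1, the a1 subunit, rose by 0.39 (adjusted p = 0.00282, edgeR), and Atp6v1g1, of the peripheral stalk, by 0.34. Atp6v1h, a regulatory subunit, rose by 0.30, Atp6v1f by 0.29, the d2 subunit Atp6v0d2 by 0.27 and Atp6v0e by 0.24, all on the log2 scale. Atp6ap1, at -0.03, and Atp6ap2, at 0.04, the accessory proteins of the pump, did not pass. With library size only, 16 of the 18 values were above 0 and 5 were called, and without vehicle library 2, 6 were called. The calls of Atp6v1h, Atp6v1f and Atp6v0e were lost in both settings. Without DI library 1, 7 were called higher and 1 lower, Atp6ap1, which had 8195 and 6183 counts in the DI libraries and was called higher without DI library 2. Within the a subunits, Tcirg1 held 77.3% and 75.7% of the summed FPKM in the vehicle libraries and 74.1% and 74.4% in the DI libraries. The share was lower in both DI libraries. Tcirg1 stood at 3.99 and 3.67 times the FPKM of Atp6v0a1 with vehicle and at 3.37 and 3.33 times with DI.

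Clcn7 and Ostm1, the chloride-proton exchanger and its obligate partner, did not pass the test. Clcn7 had 6187 and 5752 counts with vehicle and 6250 and 6492 counts with DI, or 332 and 345 CPM against 364 and 346 CPM. The second DI library and the second vehicle library were all but equal. The log2 fold change of Clcn7 was 0.07 with a 95% interval from -0.04 to 0.18 (adjusted p = 0.359, edgeR), and with library size only its sign turned, to -0.035. Ostm1 had 2051 and 1811 counts with vehicle and 2009 and 2296 counts with DI, or 110 and 109 CPM against 117 and 122 CPM. Its DI libraries lay slightly above its vehicle libraries. Ostm1 had a log2 fold change of 0.13 with a 95% interval from 0.013 to 0.25 (adjusted p = 0.131, edgeR). Both intervals lie within 0.25 of 0 on the log2 scale, a range that also holds the called Tcirg1 value of 0.19. The Ostm1 interval excludes 0, at an unadjusted p of 0.0343 in edgeR. The ratio of the pair, Clcn7 over Ostm1 in FPKM, was 3.18 and 3.35 with vehicle and 3.28 and 2.99 with DI, and these libraries overlapped. Of the other CLC transporters and channels with the bicarbonate exchanger Slc4a2, 5 of 9 were tested and 1 was called, Clcn4, an endosomal exchanger, at 0.22 (adjusted p = 0.0353, edgeR). This call was lost, among other settings, with library size only, in the DESeq2 Wald test, and without each library in turn. Slc4a2, which takes bicarbonate out of the osteoclast, had a log2 fold change of -0.09.

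Calcr had 0 counts in all 4 libraries, and was not tested. A floor of 3 counts corresponds to 0.160 to 0.180 CPM per library, so that a level below this cannot be told from 0 at this depth. Of the 9 listed relatives and ligands, 4 lacked any count and 2 were tested. Calcrl, a related receptor for other peptides of the family, fell by 0.32 on the log2 scale (adjusted p = 0.0115, edgeR), a call lost without vehicle library 2. Ramp1, an accessory protein of these receptors, had 14 and 5 counts with vehicle and 18 and 19 counts with DI, and did not pass (adjusted p = 0.251, edgeR).

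**Figure D2:**
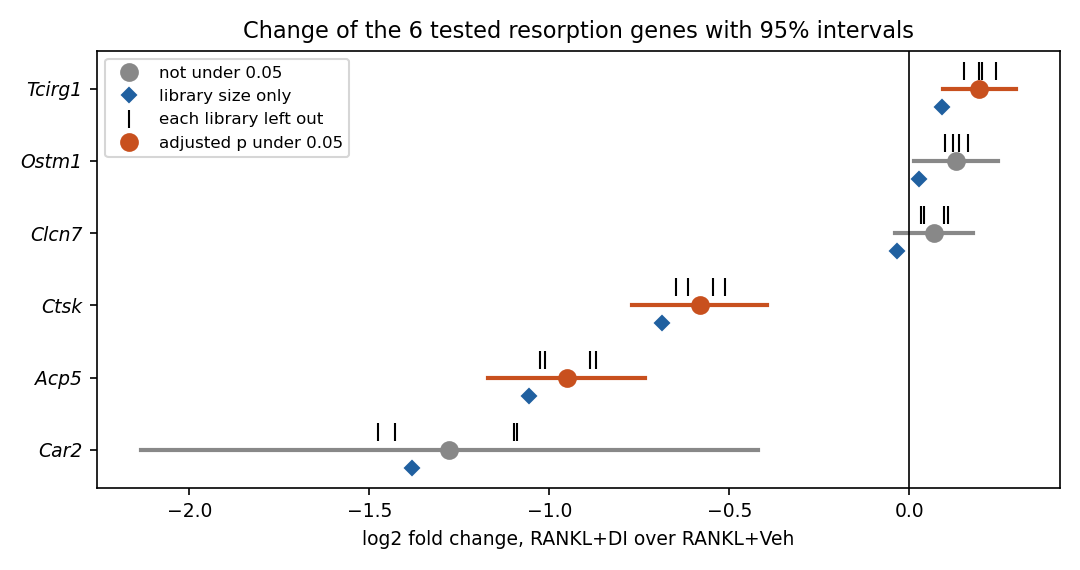
Log2 fold change (RANKL+DI over RANKL+Veh) of the 6 tested members with 95% intervals; orange marks an adjusted p under 0.05 and grey the rest, diamonds the value with library size only and ticks the values with each library left out. Acp5 at -0.95 and Ctsk at -0.58 stay below 0 under every setting drawn, Tcirg1 stays above 0 but approaches it with library size only, and the interval of Car2 is the widest.

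Several other cathepsins rose with DI while Ctsk fell. Of 13 listed cathepsins, 10 were tested, 6 were called higher and 0 lower, with a median log2 fold change of 0.23. With library size only, where the median of all genes was -0.10, 7 of the 10 were above 0. On that scale 4 were called higher and 1 lower, the latter being Ctsc, at -0.27. Ctsh, an aminopeptidase, rose by 0.48, Ctsd, the main aspartic protease of lysosomes, by 0.47 (adjusted p = 0.00157, edgeR), and Ctsb by 0.34. Ctss, which processes antigens, rose by 0.28, Ctsz by 0.24 and Ctsl by 0.22, the calls of Ctsz and Ctsl being lost with library size only. Ctsk was a small part of the summed cathepsin level in these cells. It held 0.332% and 0.306% of the summed cathepsin FPKM in the vehicle libraries and 0.173% and 0.167% in the DI libraries. Its vehicle mean of 31.3 FPKM lay between those of Ctsa, at 93.2, and Ctsc, at 22.2. Of the cystatins, inhibitors of these proteases, Cstb was called higher at 0.22 (adjusted p = 0.0231, edgeR) of 2 tested, a call lost, among other settings, with library size only and without DI library 2 or vehicle library 2. Cst3 had a log2 fold change of 0.11.

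The acid phosphatases gave calls in both directions. Of 5 listed besides Acp5, 4 were tested, 1 was called higher and 1 lower. Acp2, the lysosomal acid phosphatase, fell by 0.26 on the log2 scale (adjusted p = 0.00909, edgeR), less than Acp5, and Acp3, listed in the table as Acpp, rose by 0.41 (adjusted p = 0.0265, edgeR). Among other settings, the call of Acp3 was lost without each library in turn and with library size only. In FPKM, Acp2 stood at 1.29 and 1.46 times Acp5 with vehicle and at 2.14 and 2.29 times with DI.

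Of 14 genes for traffic to the ruffled border, 13 were tested, 4 were called higher and 0 lower, with a median of 0.25. All 13 had values above 0, against 50.2% of all tested genes. With library size only, where the median of all genes was -0.10, 9 were above 0 and 1 was called. Without vehicle library 2, 2 were called. Arl8a, a lysosomal small GTPase, rose by 0.30, Plekhm1, a lysosome adaptor whose loss causes osteopetrosis, by 0.26, and the lysosomal membrane proteins Lamp2 and Lamp1 by 0.25 and 0.24. The calls of Arl8a and Plekhm1 were lost both with library size only and without vehicle library 2. Snx10, also an osteopetrosis gene, had 2278 and 1149 counts with vehicle and 2100 and 2498 counts with DI, and did not pass. Its log2 fold change was 0.42, and 0.89 without vehicle library 1, so its value depended on that library.

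Of 8 transcription factors known to drive resorption genes, all were tested, 2 fell and 1 rose. Fos had a log2 fold change of -0.60 (adjusted p = 0.00115, edgeR) and Nfatc1, the master factor of the osteoclast, of -0.43 (adjusted p = 0.00504, edgeR). Tfe3, of the Mitf family, rose by 0.28 (adjusted p = 0.0151, edgeR), a call lost without vehicle library 1 or vehicle library 2, and Mitf itself had 0.16 without passing. The markers of the osteoclast lineage also gave calls in both directions, with 4 of the 7 tested lower and 2 higher. Their median log2 fold change was -0.35, against 0.04 for the 8 transcription factors. Of all tested genes, 14.8% were called. Ocstamp, a fusion protein, had a log2 fold change of -2.52, Mmp9, a gelatinase, of -1.64, the kinase Src of -0.55 and Tnfrsf11a, the receptor for RANKL, of -0.35. Itgb3, the integrin beta 3 subunit, and Atp6v0d2 were higher, at 0.56 and 0.27. Oscar, an osteoclast receptor, had 0 and 4 counts with vehicle and 3 and 0 counts with DI. The summed level of the 8 lineage markers was 747 and 741 CPM with DI and 772 and 752 CPM with vehicle, most of it from Atp6v0d2. Without Atp6v0d2, the other 7 summed to 239 and 232 CPM with DI and to 345 and 335 CPM with vehicle, lower in both DI libraries, and the part of this difference in the falls of Ctsk and Acp5 was not tested.

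**Figure D3:**
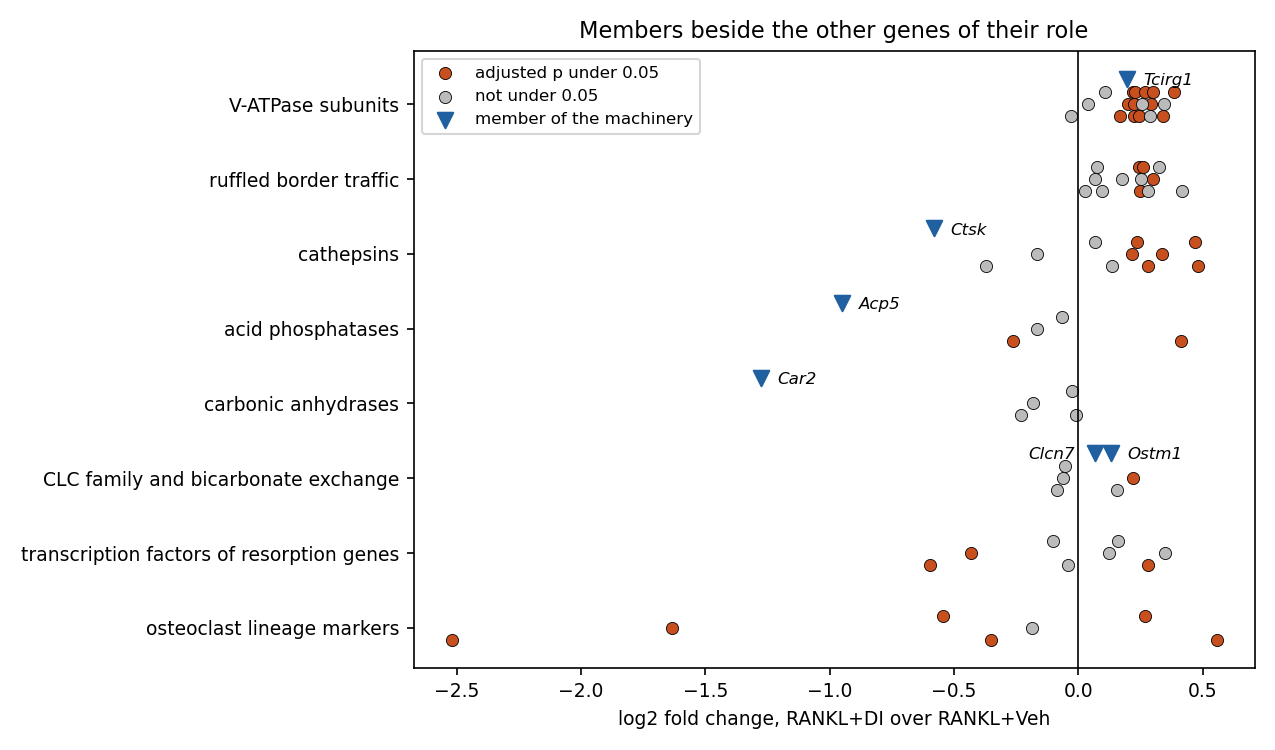
Log2 fold change (RANKL+DI over RANKL+Veh) of the tested genes of 8 lists, one row a list; circles are genes, orange with an adjusted p under 0.05 and grey otherwise, and blue triangles are the members placed over the list of their role. Ctsk, Acp5 and Car2 lie to the left of the other genes of their rows, and Tcirg1, at 0.19, lies within the V-ATPase row, whose median is 0.24.

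The order of the members by length-corrected level changed in 1 place. FPKM is not on the TMM scale, and the mean of Clcn7 was lower with DI in FPKM but higher in CPM. In FPKM, the vehicle means were 93.2 for Tcirg1, 44.1 for Clcn7, 31.3 for Ctsk, 26.4 for Acp5, 13.5 for Ostm1 and 0.506 for Car2, with Calcr at 0. With DI they were 99.3 for Tcirg1, 43.0 for Clcn7, 19.5 for Ctsk, 13.7 for Ostm1, 12.7 for Acp5 and 0.194 for Car2. Acp5 and Ostm1 thus changed places. With DI they were close, the lowest Ostm1 library at 13.4 and the highest Acp5 library at 13.2 FPKM, and no neighbours in either order overlapped between libraries. Among the genes with FPKM above 0, 7.90% and 8.94% stood above Ctsk in the vehicle libraries and 12.6% and 13.2% in the DI libraries, while for Tcirg1 the share above it was between 2.23% and 2.54% in all 4.

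Ratios within a library do not depend on how libraries are scaled to each other (see the plot of ratios). The ratio of Ctsk to Tcirg1 in FPKM was 0.342 and 0.331 with vehicle and 0.200 and 0.192 with DI. For Acp5 to Tcirg1 the ratio was 0.289 and 0.276 with vehicle and 0.133 and 0.123 with DI. Both ratios were lower in both DI libraries, with no overlap. Acp5 stood at 2.05 and 1.86 times Ostm1 with vehicle and at 0.986 and 0.865 times with DI, and at 0.847 and 0.835 times Ctsk with vehicle against 0.664 and 0.638 with DI. Such ratios show unequal change and not which gene changed, and with 2 libraries against 2 an exact permutation test cannot go below p = 0.33, so none was run.

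**Figure D4:**
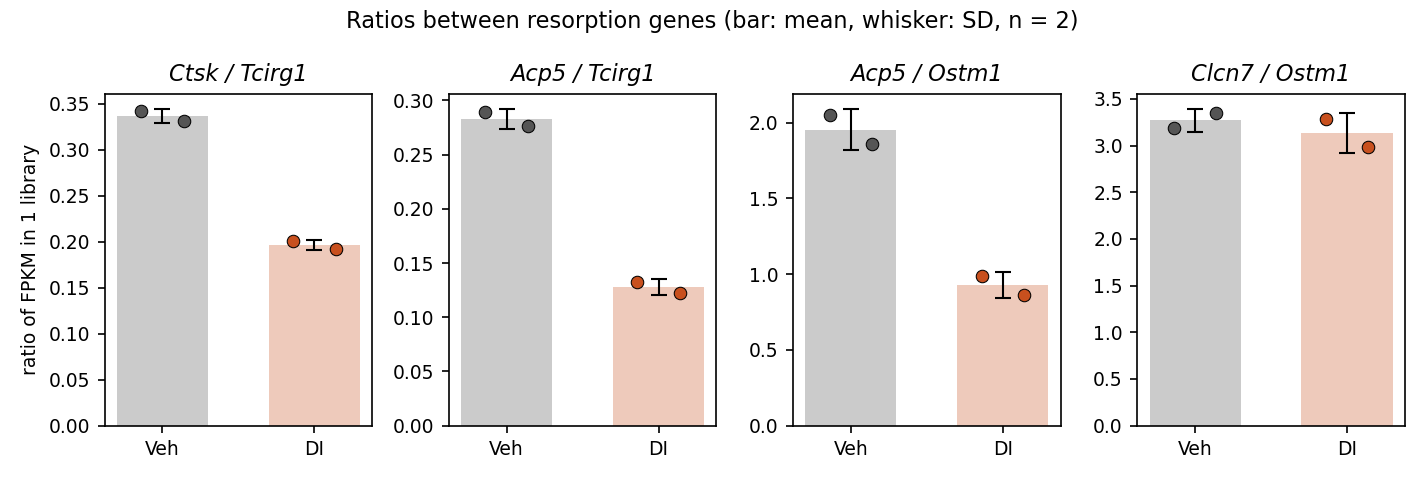
Ratios of FPKM within each library for 4 pairs of members, for vehicle (grey) and DI (orange); points are libraries, bars the mean and whiskers the SD of 2 libraries, and each axis starts at 0. Ctsk and Acp5 relative to Tcirg1, and Acp5 relative to Ostm1, were lower in both DI libraries, whereas Clcn7 relative to Ostm1 overlapped between the groups.

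The genes most like a member over the 4 libraries were found by the Euclidean distance of centred log2 CPM among 11003 genes. Nearest to Ctsk were Gen1 (distance 0.018) and the noncoding gene Snhg12 (0.030), and nearest to Acp5 were Relt (0.069) and Mmp14 (0.078), a membrane-bound collagenase. For Clcn7 they were Tpi1 and Pdcd6ip, for Ostm1 Ppp1r11 and D8Ertd738e, and for Car2 Slc13a3 (0.041) and Gbp9 (0.143). With 4 libraries in 2 groups this likeness is mainly a like difference between the groups. Mmp14 had 989 and 774 counts with vehicle and 478 and 491 counts with DI, beside 806, 646, 380 and 381 for Acp5.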

How the data were processed

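RNA of 4 libraries (2 RANKL+DI, 2 RANKL+Veh) was analysed, grouped by their labels. The authors deposited raw counts per gene and library and FPKM values, normalized to gene length and depth, in a table with KEGG terms. The aligner and the counting program are not given in the sources used here. The submitters' processing notes name the builds GRCm38 and mm10. Libraries were made with an mRNA kit and sequenced in pairs.

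Counts were tested in R 4.3.3 with edgeR 4.0.16 (TMM factors, filterByExpr, quasi-likelihood F-test, Benjamini-Hochberg adjustment over 12590 genes). Standard errors came from the fold change and F. The residual degrees of freedom were 2. The script was tested on simulated data. Depth was 16085692 to 19403480 counts, and the floors and the Poisson intervals of counts cover counting error only. The 95% intervals of log2 fold changes came from the quasi-likelihood fit and include the spread between libraries. FPKM served for levels and ratios of genes, also set side by side between groups, and was neither TMM scaled nor tested. Alternatives were DESeq2 1.42.0 (size factors, Wald test), library size only, 2 other filters, limma-voom (limma 3.58.1), a replicate block and each library left out. GENCODE M21 exon lengths for ratios were added after seeing the data. BLAST+ 2.17.0 was used to search for near-identical transcripts. Acp3 and Acp4 were found under older symbols.

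Named genes were the members, up to 6 called genes per list (otherwise the 2 with most counts), the 2 nearest genes per member (those of Tcirg1 are not reported here) and overlapping genes; those named beyond this rule, among them Atp6ap1, Atp6ap2, Snx10, Mitf and Oscar, were picked after their values were seen. Members and lists were chosen with earlier results of these data known.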

Additional observations from a re-analysis of the deposited data

How the results depend on the processing

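Ctsk and Acp5 kept direction and call under the 11 alternatives. Scaling by library size only gave 0.091 for Tcirg1 and -1.38 for Car2 on the log2 scale, turned Clcn7 to -0.035, and gave 5 calls among V-ATPase subunits and 0 among CLC genes. It also gave 1 call each among carbonic anhydrases, acid phosphatases and ruffled border genes, and 0 among cystatins. That scale shifts all values by about -0.10. A minimum of 10 counts in every library gave -1.28 for Car2, now called, and the DESeq2 Wald test gave 0 calls among CLC genes.

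The replicate numbers were not taken to pair samples (correlation of deviations -0.03 over 12590 genes). The replicate block gave 1389 called genes in place of 1868, 0 calls each among CLC genes and cystatins (Clcn4 and Cstb lost), and 1 among acid phosphatases (Acp3 lost), and kept the 3 called members.

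With each library left out in turn, where a lone library was assumed to vary like the other group, called genes ranged from 1087 (without vehicle library 2; 1120 without vehicle library 1) to 1394. Tcirg1 ranged from 0.15 to 0.24. Calls ranged from 6 to 9 among V-ATPase subunits (1 of them lower, Atp6ap1, without DI library 1), from 2 to 5 among ruffled border genes, from 0 to 1 among cystatins and from 0 to 1 among calcitonin relatives, and stood at 0 among CLC genes and 1 among acid phosphatases throughout.

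With GENCODE M21 exon lengths, Tcirg1 held 75.4% (DI) and 77.6% (vehicle) of the a subunits. Ctsk held 0.158% (DI) and 0.302% (vehicle) of cathepsins, and Clcn7 over Ostm1 was 4.05 (DI) and 4.22 (vehicle). TPM gave the same ratios as FPKM by construction. Calcr could not be fitted under any alternative. At 10 to 31 counts, Car2 is limited by depth. The cause of these differences was not tested.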

Other observations

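Pathways that the deposited table assigns to at least 2 members held genes moving both ways. Over all tested genes, 7.14% were called higher with DI and 7.70% lower. The KEGG pathway Lysosome lists Ctsk, Acp5 and Tcirg1. Of its 107 other tested genes, 33 were called higher with DI and 4 lower, with a median log2 fold change of 0.15. In Osteoclast differentiation, which lists Ctsk, Acp5 and Calcr, 15 of the 104 others were called higher and 19 lower, with a median of 0.03. Collecting duct acid secretion, which lists Tcirg1 and Car2, had 10 called higher and 1 called lower of 15 others. Rheumatoid arthritis, which lists Ctsk, Acp5 and Tcirg1, had 16 called higher and 6 called lower of 49 others, with a median of 0.14. These lists overlap with the V-ATPase list, and no enrichment was tested.

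Stromal and osteoblast markers, a cell type that can also express Ctsk, summed to 50.4 and 52.2 CPM with DI and to 52.7 and 57.1 CPM with vehicle. Of 11 listed, 5 were tested and none was called in edgeR, and Bglap, Ibsp and Lum had 0 counts. B cell, T and NK cell, and mast cell markers summed to at most 0.699 CPM in any library, and neutrophil markers to 7.89 to 9.90 CPM, with Ly6g at 0. Their part in the change of Ctsk was not tested.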
